A study of Schizosaccharomyces pombe with 6 samples.

Results

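Fission yeast transcribes many RNAs that carry no long open reading frame, and 207 of them bear only the description "non-coding RNA" (alone or with a few words such as "poly(A)-bearing" or "centromeric") in the deposited table. These 207 unclassified ncRNAs are the subject here. They were chosen by identifier (SPNCRNA) and by the opening words of that description, with no use of any measured value, from 1286 ncRNAs among 6345 genes. The other ncRNAs are described there as antisense RNAs (667), intergenic RNAs (404) or in some other way (8), and the remaining 5059 genes are mainly mRNAs. All of the 207 had passed the authors' minimum of 20 reads, so RNAs of this kind below that minimum are outside the set.

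RNA came from *mkt1Δ* cells (strain EHB2196, 3 libraries) and from wild-type cells (strain EHB7, 3 libraries). The *mkt1Δ* strain carries a NatR cassette in place of *mkt1*, which encodes a post-transcriptional regulator linked to RNA interference. Both strains are h+ and share the alleles ade6-210, leu1-32 and ura4-D18 and the otr1R(Sph1):ade6+ reporter in the outer repeat of centromere 1, and both were grown exponentially in YES at 32°C. The level analysed is the authors' mean log2 CPM (CPM, the reads of a gene scaled to a fixed library total), with 1 value per gene taken over all 6 libraries of both strains. It gives the abundance of an RNA in these cultures but no difference between *mkt1Δ* and wild-type cells, and no spread between replicates. The error in the order of neighbouring levels therefore cannot be estimated, and no test was run. The rank of an RNA, and its side of a level limit, may differ between the strains. The depth of each library is unknown. Since whole cultures were sequenced, fewer cells expressing an RNA and less of it per cell cannot be told apart.

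Long non-coding RNAs in this yeast arise beside, within and opposite protein-coding genes. Some act through the protein that binds them, as meiRNA does in meiosis, and others through the act of transcription itself, which can silence a gene downstream, while RNAs of the pericentromeric repeats feed RNA interference and heterochromatin. The symbol *prl* stands for poly(A)-bearing RNA without a long open reading frame and was given to RNAs found as polyadenylated cDNAs. For most of the 207 no function is stated in the table.

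The unclassified ncRNAs were the least abundant of the large RNA classes in these libraries. Their median level was a log2 CPM of -0.31, or 0.808 CPM, against 2.29 for intergenic RNAs, 2.56 for antisense RNAs, 2.15 for all ncRNAs and 5.79 for all 6345 genes. Their quartiles were -1.39 and 1.44. A level under a log2 CPM of 0 was found for 111 of the 207 (53.6%), against 55 of 404 intergenic RNAs (13.6%), 90 of 667 antisense RNAs (13.5%) and 90 of 5059 other genes (1.78%). A further 59 lay between 0 and 2 and 30 between 2 and 5, and only 7 (3.38%) reached 5 or more. That level was reached by 9.41% of intergenic RNAs, 12.4% of antisense RNAs, 10.1% of all ncRNAs and 79.2% of the other genes. On either side of these limits stood *prl52* (-0.05) and SPNCRNA.108 (0.02) at 0, SPNCRNA.399 (1.91) and *prl34* (just above the limit, at 4.01 CPM) at 2, and SPNCRNA.228 (4.84) and *prl32* (5.33) at 5. The lowest value in the whole table, -2.47, belonged to SPNCRNA.403.

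The RNAs were also short. Of the 207 RNAs, 190 (91.8%) were matched by identifier in the RefSeq annotation of ASM294v3, where their median length was 566.5 bases, against 965 for intergenic RNAs, 1474 for antisense RNAs and 1693 for the other genes. All but 1 of the matched RNAs have a single exon. Divided by annotated length, their median level was a log2 CPM per kb of 0.82, against 2.28 for intergenic RNAs, 1.98 for antisense RNAs and 5.33 for the other genes. The difference of medians was therefore -1.46 on the log2 scale from intergenic RNAs and -1.16 from antisense RNAs. Over genes with a log2 CPM above 0 alone these differences were -0.30 and 0.045, the latter with its sign changed. That limit is set on the level itself and removes 111 of the 207 unclassified ncRNAs but 90 of 667 antisense RNAs. The medians draw together by its construction, and no order is read from 0.045. Genes are not replicates and all share the same libraries, so these differences are descriptions.

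**Figure D1:**
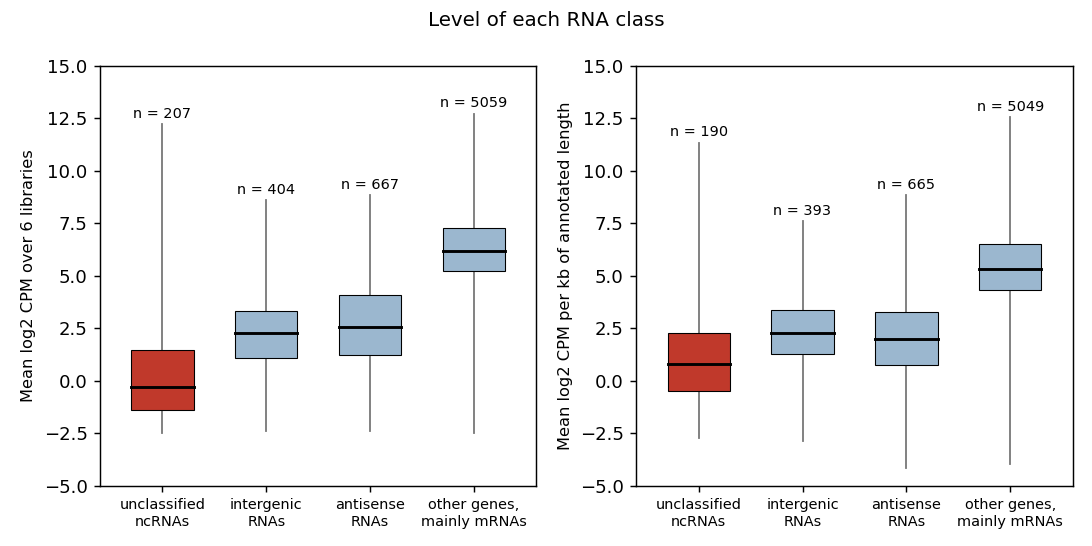
Level of each RNA class, as mean log2 CPM over the 6 libraries on the left and per kb of annotated length on the right. Boxes run between the quartiles of the genes, the heavy line is the median and the thin line runs from the lowest to the highest gene. The median of the unclassified ncRNAs (-0.31, and 0.82 per kb) lies below those of the other 3 classes on both scales, while their highest RNA, at 12.22, comes close to the highest of the other genes at 12.72.

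A single RNA dominated the reads of the group. *prl53* (SPNCRNA.53, 1852 bases, chromosome I) had a log2 CPM of 12.22, or 4772 CPM, which was 82.2% of the 5809 CPM summed over all 207. The next, SPNCRNA.133, had 7.61 (195 CPM) and *prl3* (SPNCRNA.03) had 6.96 (124 CPM). They were followed by *prl58* (SPNCRNA.58) with 6.10, SPNCRNA.570 with 5.95, SPNCRNA.112 with 5.49 and *prl32* (SPNCRNA.32) with 5.33. Together these 7 RNAs made up 91.4% of the sum, whereas the 111 RNAs under a log2 CPM of 0 made up 0.880%. The sum without *prl53* was 1037 CPM, and the median level without it was -0.33.

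The 8 RNAs that complete the first 15 lay between 3.79 and 4.84. They were SPNCRNA.228 (4.84), SPNCRNA.135 (4.73), *prl28* (4.50), SPNCRNA.586 (4.48), SPNCRNA.01 (4.36), SPNCRNA.503 (3.99), SPNCRNA.242 (3.92) and SPNCRNA.440 (3.79). The RefSeq annotation calls SPNCRNA.135 a probable 5′ UTR of SPBC365.16 and SPNCRNA.586 a probable 3′ UTR of *ptc2*, a protein phosphatase gene, so these entries may not be transcripts of their own. At the other end, SPNCRNA.403 (-2.47), SPNCRNA.446 (-2.47), SPNCRNA.89 (-2.47), SPNCRNA.311 (-2.42) and SPNCRNA.415 (-2.34) had between 0.181 and 0.198 CPM. The authors' tool, edgeR, adds a small count before taking logs, which compresses differences among values this low.

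**Figure D2:**
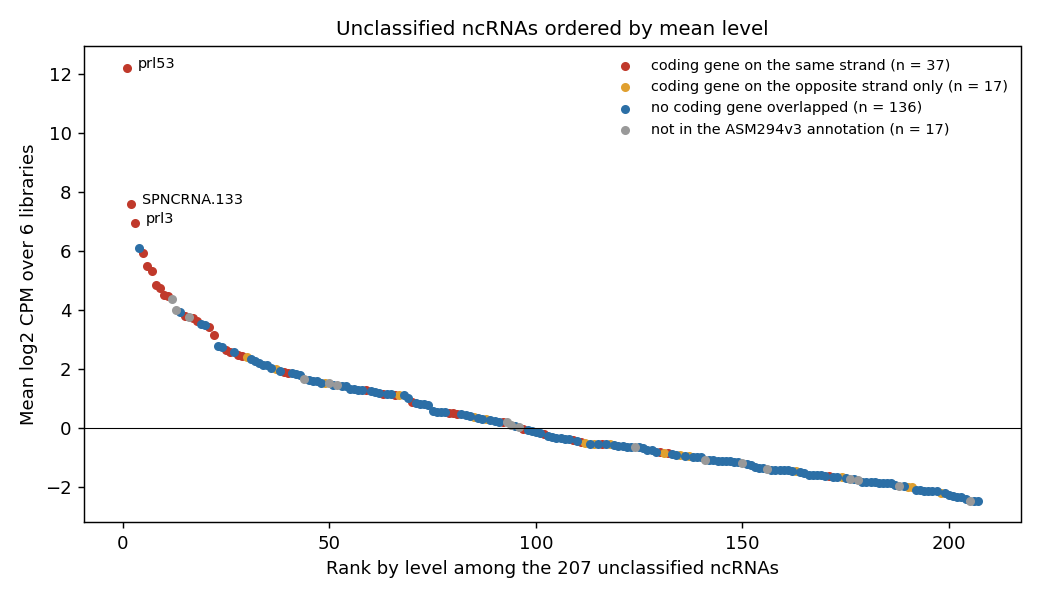
The 207 unclassified ncRNAs in order of mean log2 CPM over the 6 libraries, coloured by whether the locus overlaps a protein-coding gene in ASM294v3. *prl53* at 12.22 stands apart from the next RNA, SPNCRNA.133 at 7.61. Of the 37 RNAs on the strand of a coding gene, 19 lie at 2 or more and 8 under 0.

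The highest levels were found where an ncRNA shares its strand with a protein-coding gene. In ASM294v3, 37 of the 190 matched RNAs overlap a coding gene on the same strand, 17 overlap one on the opposite strand only and 136 overlap none. The median level was a log2 CPM of 2.42 for the RNAs on a coding gene's strand, against -0.56 for those opposite a coding gene and -0.61 for those free of one. Per kb the medians were 3.14, 0.11 and 0.58. Free here means free of coding genes only. Just 44 of the 136 overlap no annotated gene of any kind, with medians of 0.06 and, per kb, 1.46. The rest of the 136 overlap some gene that is not protein-coding. Of the 7 RNAs at 5 or more, 6 share a strand with a coding gene, as do 11 of the first 15 (13 matched) and 1 of the 50 lowest (46 matched). The same split was narrower among intergenic RNAs, with a median per kb of 2.98 for 70 on a coding gene's strand and 2.24 for 201 free of one. Thus on a coding gene's strand the medians per kb of unclassified and intergenic RNAs were 3.14 and 2.98, and free of coding genes they were 0.58 and 2.24. Intergenic RNAs were not split by overlap with other non-coding genes, so the last 2 values may hold unlike shares of such overlaps. For antisense RNAs the median per kb was 2.88 over 74 on a coding gene's strand, against 1.98 over the whole class. Only 4 antisense RNAs were free of a coding gene. Reads of such overlapping genes are uncertain: HTSeq's union mode gives a read that covers 2 genes to neither, and whether counting used strand is not given in the sources used here. The gene models are also those of a later annotation than the one the authors counted with. How far reads of a coding gene's own transcript enter these levels was not tested.

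Set beside the coding gene on the same strand, 35 of the 37 RNAs had the lower level, with a median difference of -4.01 on the log2 scale. The exceptions were *prl53*, with 12.22 against 11.04 for SPAC27E2.11c (a protein known only in *Schizosaccharomyces*), and *prl32*, with 5.33 against 1.29 for the dubious gene SPCC417.15. *prl3* and SPNCRNA.570 lay close to their genes, with 6.96 against 7.20 for the dubious gene SPAC806.11 and 5.95 against 5.95 for SPBC30B4.09. These levels are not divided by length, and each pools both strains, so the gap within a pair in *mkt1Δ* or in wild-type cells alone is not given. For *prl53* the overlap covers 18.0% of its locus and for *prl3* 28.3%, so most of either locus lies outside the coding gene.

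The other RNAs on a coding gene's strand include 11 that lie wholly inside its span. Overlap was taken over whole gene spans, introns included, so it need not mean shared exon sequence. SPNCRNA.133 lies inside *fhn1*, which encodes a plasma membrane organization protein, with 7.61 against 8.61 for the gene, and SPNCRNA.112 inside *rhs1* had 5.49 against 7.31. The gene *msi2*, described as coding for an mRNA cleavage factor subunit, holds both *prl62* and SPNCRNA.102, whose levels were 3.14 and -0.85 against 7.25 for *msi2*. The 2 RNAs inside this gene thus lay far apart, with no spread between replicates to set beside the gap. The widest gap was at *snR48* (SPNCRNA.497), a small RNA of 75 bases inside the ribosomal protein gene *rps3*, with 0.87 against 11.11. Neither level is divided by length, and per kb *snR48* had 4.605, at rank 12 among the matched RNAs. Over the 37 pairs Spearman's rho of the 2 levels was 0.36, and rho of the RNA's level with the share of its locus inside the gene was 0.00072. The pairs share libraries, and the division of reads between overlapping genes is uncertain, so these are descriptions.

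**Figure D3:**
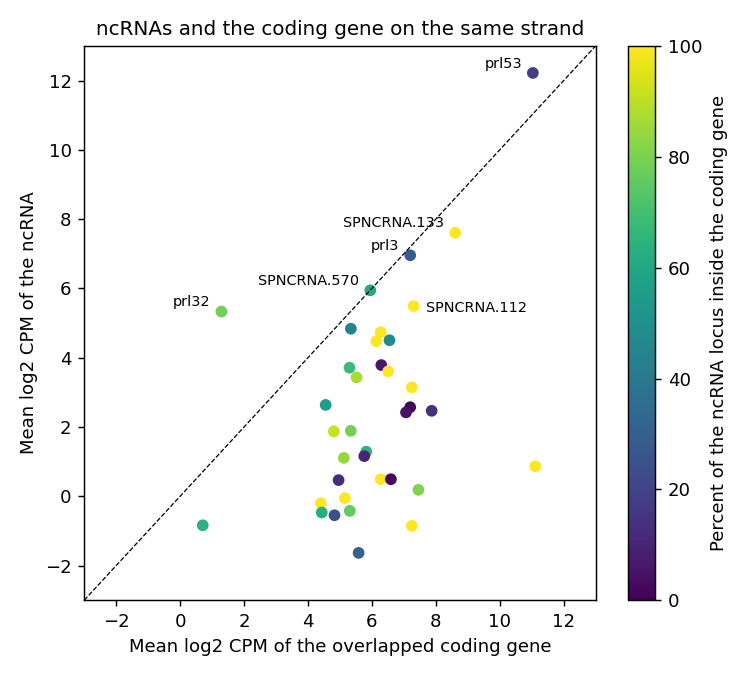
Mean log2 CPM of the 37 ncRNAs that overlap a protein-coding gene on the same strand, against that of the coding gene, with the colour giving the percent of the ncRNA locus inside the gene. The dashed line marks equal levels, and *prl53* and *prl32* are the RNAs above it.

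The poly(A)-bearing RNAs had a higher median level than the rest of the group but overlapped it widely. The table describes 30 of the 207 in this way, and 27 of these have a *prl* symbol in ASM294v3, with *meu19*, *meu20* and the unmatched SPNCRNA.01 as the others. Their median level was a log2 CPM of 1.31, against -0.44 for the 177 other unclassified ncRNAs, and per kb it was 2.27 against 0.62. Their quartiles were -0.75 and 3.05, against -1.43 and 1.26 for the others. They hold 4 of the 7 RNAs at 5 or more. Among matched poly(A)-bearing RNAs that level was reached by 3 of 7 with a coding gene on the same strand and 1 of 22 without one. For the matched others it was 3 of 30 and 0 of 131. The libraries were made with a kit that selects polyadenylated RNA. The split follows the deposited description alone, and the others include SPNCRNA.71 (-1.26), which RefSeq calls polyadenylated, and *prl21* (-0.54). A coding gene lay on the same strand for 7 of 29 matched poly(A)-bearing RNAs and for 30 of 161 matched others. Without a coding gene on the same strand the medians were 0.36 over 22 poly(A)-bearing RNAs and -0.64 over 131 others, and with one they were 4.50 over 7 and 1.58 over 30.

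Among themselves the poly(A)-bearing RNAs covered nearly the whole range of the table. The 5 highest were *prl53*, *prl3*, *prl58*, *prl32* and *prl28*. *prl58* (447 bases) overlaps no annotated gene at all and had 6.10, or a log2 CPM per kb of 7.27, the highest of the RNAs free of a coding gene. It abuts SPAC20G8.02, a predicted mitochondrial phospholipase gene with a level of 6.86, and converges on it. *prl19*, which lies upstream of the sodium/proton antiporter gene *nhe1* on the same strand, had 3.52, and *prl50*, divergent from the meiotic gene *meu13*, had 2.76. The 5 lowest were *prl39* (-2.01), *prl43* (-2.01), *prl40* (-1.66), *prl68* (-1.59) and *prl13* (-1.47). *prl40* is annotated in RefSeq as specific to quiescence, a state these growing cultures were not in. The others fill the space between. *prl62* and *prl57* had 3.14 and 1.83, and *prl57* is the one RNA of the 190 with a second exon. *prl35*, just below *prl57*, was at 3.48 CPM. *prl24*, *prl54* and *prl42* followed with 1.63, 1.52 and 1.11. *prl36* and *prl51* had 0.41 and 0.30, and *prl52*, which RefSeq describes as a possible UTR of SPAC22E12.02, had -0.05. Below 0 were also *prl45* (-0.38), *prl22* (-0.54), *prl33* (-0.82), *prl4* (-0.97) and *prl66* (-1.43). *prl21*, which has the symbol but the plain description, had -0.54. The *prl* symbol therefore marks no common level.

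**Figure D4:**
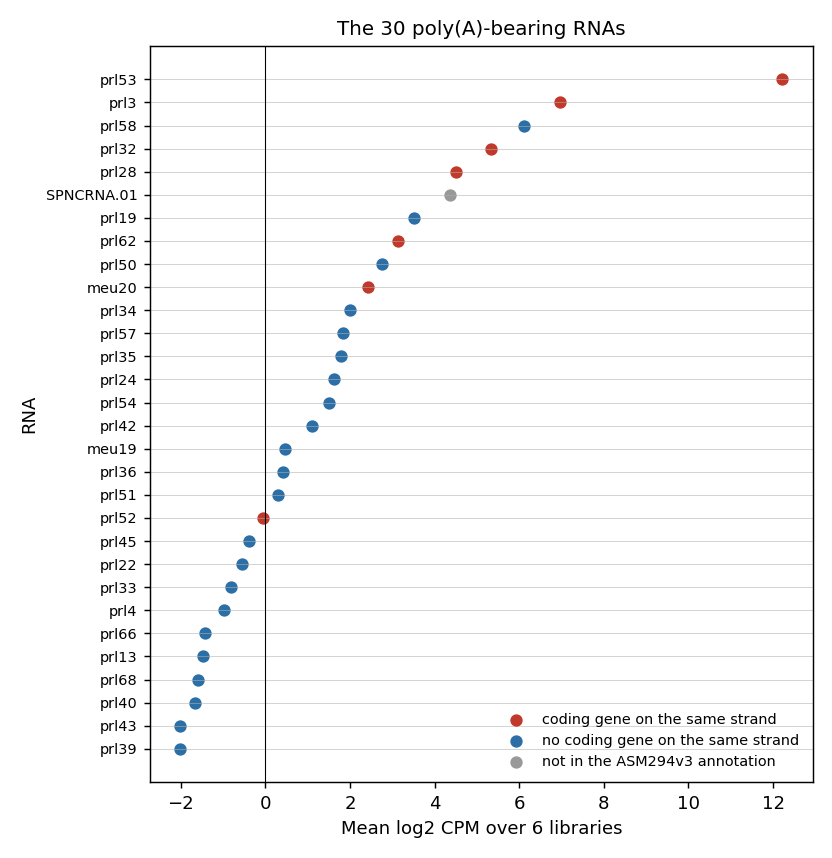
Mean log2 CPM over the 6 libraries of the 30 RNAs described as poly(A)-bearing, in order of level, coloured by overlap with a coding gene on the same strand in ASM294v3. They run from *prl39* at -2.01 to *prl53* at 12.22, and 11 of the 30 lie under 0.

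Per kb, the 10 highest RNAs were *prl53* (11.33), *prl3* (7.32), *prl58* (7.27), SPNCRNA.133 (7.20), SPNCRNA.112 (6.61), *prl32* (6.55), SPNCRNA.570 (6.39), SPNCRNA.242 (5.50), SPNCRNA.228 (5.41) and *prl28* (5.26). Apart from *prl58*, SPNCRNA.242 was the one RNA in this list with no coding gene on its strand. It lies upstream of *dap1*, a regulator of cytochrome P450 enzymes, at a distance of 765 bases. The first 7 by level are also the first 7 per kb, though not in the same order.

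RNAs annotated for meiosis, quiescence or the nucleolus lay between -1.66 (*prl40*) and 2.42. *meu3*, *meu19* and *meu20*, whose symbol stands for meiotic expression upregulated, had -1.11, 0.46 and 2.42. Small RNAs annotated in RefSeq as expressed in meiosis or quiescence, SPNCRNA.213, SPNCRNA.71 and SPNCRNA.115, had -1.13, -1.26 and -1.36. The small nucleolar RNA *sno530* and the candidate snoRNA SPNCRNA.498 had 1.33 and 0.49, but being short they reached 4.04 and 3.82 per kb. Levels of RNAs of this length depend on which fragments the library kept, and 10 of the matched RNAs are shorter than 200 bases. The lncRNA *nam3* (SPNCRNA.1696), the only one of the 207 with an identifier number above 600, had 1.86.

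Centromeric RNAs, the substrate class of RNA interference that the study as a whole is about, are represented by 4 of the 207. SPNCRNA.359, the longest of all at 2225 bases, had a level of 1.10. SPNCRNA.234 had -1.49, SPNCRNA.373 had -2.15 and SPNCRNA.232 had -2.15. Per kb all of them were below 0, at -0.05, -1.54, -2.66 and -2.29 in the same order. SPNCRNA.480, annotated in RefSeq as centromere-proximal, had -2.30. Repeats with near-identical copies can lose reads at alignment, and these values are uncertain for that reason as well as for their few reads.

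The 136 RNAs that overlap no coding gene lay at a median distance of 250.5 bases from the nearest one. For 59 of them that gene is downstream on the same strand, 53 are divergent from it, 13 lie downstream of it on the same strand and 11 converge on it. The median levels in these positions were -0.55, -0.74, -0.62 and 0.46, and per kb 0.62, 0.29, -0.62 and 1.77. The 98 RNAs within 500 bases of a coding gene had a median of -0.42 against -1.14 for the 38 farther away, and Spearman's rho of level and distance over the 136 was -0.21. With the level of the nearest coding gene, rho was 0.08 over 133 RNAs. Correlations this weak in RNAs with few reads are no finding.

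The RNAs were also poor in G and C. Their median GC content was 32.0%, against 33.7% for intergenic RNAs, 36.6% for antisense RNAs and 37.2% for the other genes, and rho of level and GC content among the 190 was 0.26. With length, rho was 0.14 for the level and -0.28 for the level per kb. The 31 RNAs of 1000 bases or more had a median level per kb of -0.05 and the 10 shorter than 200 bases one of 2.29. By chromosome the median levels were -0.57 over 87 RNAs on I, -0.15 over 68 on II and 0.37 over 35 on III, and per kb 0.69, 0.91 and 0.73. The 17 RNAs with no match in ASM294v3 had a median level of 0.02 and ran from -2.47 to 4.36.

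RNAs of known role that the table describes by name offer a scale for these levels. The RNase P RNA *rrk1* had a log2 CPM per kb of 5.43, the RNase MRP RNA *mrp1* 5.57, the signal recognition particle RNA *srp7* 4.06, the telomerase RNA *ter1* 4.02 and the meiosis RNA *sme2* (meiRNA) 3.32. Among the 190 matched RNAs, 8 lay above *rrk1* on this scale, 7 above *mrp1*, 16 above *srp7*, 18 above *ter1* and 28 above *sme2*. *omt3* (SPNCRNA.130) is described in the table as an intergenic RNA and is not one of the 207. Its level of 6.10, or 6.10 per kb, is exceeded by 4 of the 207 in level and by 7 per kb. Several of these RNAs are not polyadenylated in the cell and are poorly kept by this kind of library, so the scale holds for these libraries only.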

How the data were processed

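RNA was measured in 3 *mkt1Δ* and 3 wild-type libraries. Reads were trimmed (cutadapt 1.8.3), aligned to ASM294v2 (STAR 2.5) and assigned to genes in HTSeq's union mode (version 0.6.1) by the authors, who discarded genes with under 20 reads and used edgeR 3.12.0. The deposited level is the authors' log2 CPM, with 1 value per gene over all libraries, called the mean log2 CPM here. Whether averaging came before or after the log is not stated in the sources used here. The deposited table also holds 3 columns of the authors' own comparison of the strains (fold changes with raw and adjusted p-values), which were not used, so no difference between the strains is given. No column of single libraries was left unused (0).

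Length, GC content, overlaps and symbols were taken by identifier from RefSeq's annotation of ASM294v3, another build, so no coordinates or sequences are printed and the planned search for promoter motifs was not run. By identifier 6305 of 6345 genes matched. Length is summed exons, whereas overlap is between whole gene spans, introns included. Named are the 15 highest and 5 lowest RNAs, the 10 highest per kb, the 5 highest and 5 lowest *prl* RNAs, those nearest each level limit, the longest and the shortest, *omt3* and RNAs of known role. The remaining *prl* RNAs and those named for an overlap, a position or an annotation were chosen after their values were seen. The group and the lists were chosen with earlier results of these data known. Values were computed with pandas 2.3.3, scipy 1.17.1 and numpy 2.4.6 (Python 3.11.15), figures drawn with matplotlib 3.10.9, and the summaries tested on simulated data.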

Additional observations from a re-analysis of the deposited data

How the results depend on the processing

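No paired analysis was possible because each deposited level averages all libraries and no test was run. For the same reason no library could be left out, and the depth of each is unknown. Of 37 recomputed values, 27 moved by less than 1.5 times, but some of the 27 could not move by construction. These include values per kb over matched RNAs alone, the count at 5 or more among genes above 0 and the count under 0 without *prl53*. Counting introns in the length could change little, since nearly all matched RNAs have a single exon. Keeping only genes with a log2 CPM above 0 gave a median level of 1.52 (above 0, where it had been below), a median per kb of 2.32 and a difference of medians per kb of -0.30 from intergenic RNAs and 0.045 from antisense RNAs, a change of sign. That setting removes the low RNAs by its own construction, and a count under 0 could not be given for it. Keeping only the 44 RNAs that overlap no other annotated gene left 1 at a log2 CPM of 5 or more and 22 under 0, with a median level of 0.061, also above 0, and a median per kb of 1.46. The differences were then -0.83 from intergenic and -0.52 from antisense RNAs, but those classes were left whole, so unlike sets are compared. Without the RNAs on a coding gene's strand, 1 RNA was at 5 or more. Leaving out these RNAs, in the group alone or in all classes, and leaving out *prl53* were chosen after seeing the data.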
